A study of Mus musculus with 5 samples.

Results

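Small cell lung cancer is an aggressive neuroendocrine lung cancer, and 5 bulk RNA-seq libraries of such tumours from mice of the genotype labelled RPP were compared here by their level of Pou3f2. The sides were chosen by the measured level: the count of Pou3f2 was divided by the library's total count and expressed per 1000000 counts (CPM), and tumours at 10 CPM or more were called Pou3f2-high. That selected 2 of the 5 tumours, t757 and t534, and left 3 Pou3f2-low tumours, t533, t536 and t539. By this measure Pou3f2 stood at 45.8 CPM in t757 and 60.1 CPM in t534, against 1.01 CPM in t533, 0.0506 CPM in t536 and 0.256 CPM in t539, so t757 was the nearest tumour above the limit and t533 the nearest below it. The high side holds vehicle replicate 2 (t757) and LSN replicate 1 (t534). The low side holds vehicle replicate 1 (t533) and LSN replicates 2 and 3 (t536 and t539). LSN is the name the labels give the treatment, and the series describes it as inhibition of Aurora A kinase, a kinase of the mitotic spindle. All 5 tumours share the RPP genotype, the letters of which the labels do not spell out, and no dose, treatment time or age is stated in them. The labels name lung tumour tissue, frozen at necropsy, so each library mixes tumour cells with whatever other cells the piece held, although the labels' cell type and the design text speak of tumour cells. Nothing states that each library came from a separate mouse, so errors and p-values measure only the spread between these samples.

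Pou3f2, also called Brn2, is a transcription factor with a POU domain and a homeodomain that acts in neural progenitors and young neurons. Neuroendocrine tumours often keep both an epithelial identity, built on E-cadherin, keratins, claudins and the splicing regulators Esrp1 and Esrp2, and a neural one, driven by factors such as Insm1. Nr2f1 is a nuclear receptor of the COUP family that patterns the nervous system.

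Since the tumours were sorted by expression in these same libraries, no p-value is given for the high side against the low side. A gene is called separated when both high tumours lie above, or both below, all 3 low tumours, and widely separated when the fitted difference is also 4-fold or more (a log2 difference of 2). Differences are log2 values from the edgeR fit, high minus low, each with a standard error (SE). The SE was worked out as the absolute difference divided by the square root of edgeR's quasi-likelihood F statistic. It restates that statistic and is given only as a measure of spread. Levels below are CPM on TMM-scaled library sizes, a scaling that evens out differences in composition between libraries, and are given first for t757 and t534, then for t533, t536 and t539. They compare a gene between tumours, not genes with each other.

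The libraries held 17439049 to 19766604 counts, and 23446 to 24604 genes had at least 1 count. On the TMM scale, 3 counts are a level of 0.159 to 0.167 CPM. Mitochondrial genes took 0.942% to 1.75% of the counts. The Y-linked gene Ddx3y had 1 and 2 counts in t757 and t536, 1 tumour on each side, and 1083, 1291 and 2314 counts in t534, t533 and t539, so the sides did not follow the presence of the Y chromosome. Insm1, a factor of neuroendocrine cells, stood at 445 CPM or more in every library.

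Of 17905 genes tested besides Pou3f2, 3087 (17.2%) were higher in both high tumours than in all low ones and 3244 (18.1%) were lower. Widely separated genes numbered 645 higher (3.6%) and 549 lower (3.07%). These shares are the background for every count below over all 5 tumours, and the median log2 difference over all genes was −0.02. Counts below with 1 tumour left out have other backgrounds. A separated gene stays separated with 1 tumour fewer, apart from small shifts in scaling and filtering. Such counts of separated genes can therefore rise but hardly fall. Without t536, 22.5% of all genes were higher and 23.7% lower, and without t539 25.6% and 25.2%. The backgrounds without each of the other tumours close this paragraph. The 645 higher genes included 518 protein-coding genes and 42 transcription factors, and 85 of them differed by 32-fold or more. The 549 lower genes included 415 protein-coding genes and 24 transcription factors, and 88 of them differed by 32-fold or more. Without t757, 5053 genes were higher and 5085 lower, and without t534 the counts were 5585 and 5562, with a single tumour on the high side. Widely separated genes numbered 1076 higher without t533, 1114 higher and 936 lower without t534, and 1033 lower without t757. With 1 tumour fewer to order, 22.5% to 29.3% of all genes were higher and 23.7% to 29.2% lower; without t534 these shares were 29.3% and 29.2%, without t757 26.6% and 26.8%, and without t533 24.6% and 23.9%.

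Pairs of tumours were also compared without regard to side, over 16038 genes at a mean of 1 CPM or more. The pair t757 and t534, a vehicle and an LSN tumour, differed by 4-fold or more at 830 genes (5.18%). The 3 pairs of low tumours differed at 1132 to 1423 genes (7.06% to 8.87%), and the 6 pairs across the sides at 1344 to 2436 genes (8.38% to 15.2%). The 2 high tumours were therefore the closest of the 10 pairs, and t533, the low tumour with the most Pou3f2, was the low tumour closest to either of them. The sides were selected on 1 gene of these libraries, so these distances are a description.

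Treatment was the comparison the labels define, and it crosses the sides. LSN against vehicle gave 0 of 17906 genes (0%) at an adjusted p under 0.05 by edgeR's quasi-likelihood test with Benjamini-Hochberg adjustment, with 764 genes at an unadjusted p under 0.05. With the Pou3f2 side as a term, it again gave 0 genes, and 903 at an unadjusted p under 0.05. DESeq2 called 111 of 17847 genes, 18 higher and 93 lower with LSN.

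The genes with the widest gap between the lower high tumour and the highest low tumour are described first, by what each is known to do. Frrs1l, which helps assemble AMPA-type glutamate receptors, stood at 71.4 and 108 CPM in the high tumours and 0.484, 0.268 and 0.318 CPM in the low ones, a difference of 7.95 ± 0.40. Stmn4, a stathmin that binds tubulin in neurons, stood at 116 and 101 CPM against 2.42, 0.214 and 0.635 CPM (6.63 ± 0.92). Both genes were high in the vehicle and in the LSN tumour of the high side, which follows from picking them by their gap. Sall1, a zinc-finger factor of kidney and limb development, stood at 53.3 and 19.9 CPM against 0, 0 and 0.106 CPM. The low side held only 2 counts of Sall1 in all, so the ratio of 1026 has a counting interval of 283 to 8477. Nrg3, a neuregulin that signals through the receptor ErbB4, stood at 23.2 and 8.45 CPM and had no count in any low tumour, which makes it at least 295.6-fold higher, taking 3 counts over the low side as the floor. By the same floor, Rit2, a neuronal small GTPase at 2.9 and 10 CPM, was at least 121-fold higher. Slitrk2, a synaptic adhesion protein at 6.03 and 2.76 CPM, was at least 82.1-fold higher.

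Regulators of embryonic development were among the same genes. Eya4, a transcriptional coactivator of ear development, stood at 48 and 23.4 CPM against 0.43, 0.59 and 0.265 CPM (6.36 ± 0.57). Uncx, a homeobox factor of the somites and the nervous system, stood at 5.86 and 6.79 CPM against 0.108, 0.0536 and 0.159 CPM (5.80 ± 0.69). For all of them, the lower high tumour exceeded the highest low tumour many times over. Vxn, a promoter of neurogenesis, stood at 14.2 and 35.8 CPM against 0, 0.322 and 0 CPM. Slc4a10, a bicarbonate transporter of neurons, stood at 10.6 and 10.7 CPM against 0.108, 0.375 and 0.0529 CPM (5.84 ± 0.87). Others were Lingo2, a leucine-rich adhesion protein, Glra2, a glycine receptor subunit, Frmd7, a cytoskeletal protein of neurite growth, and the orphan receptor Gpr101, with 1 to 3 counts each over the whole low side and 5.69 to 21.4 CPM in the high tumours.

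**Figure D1:**
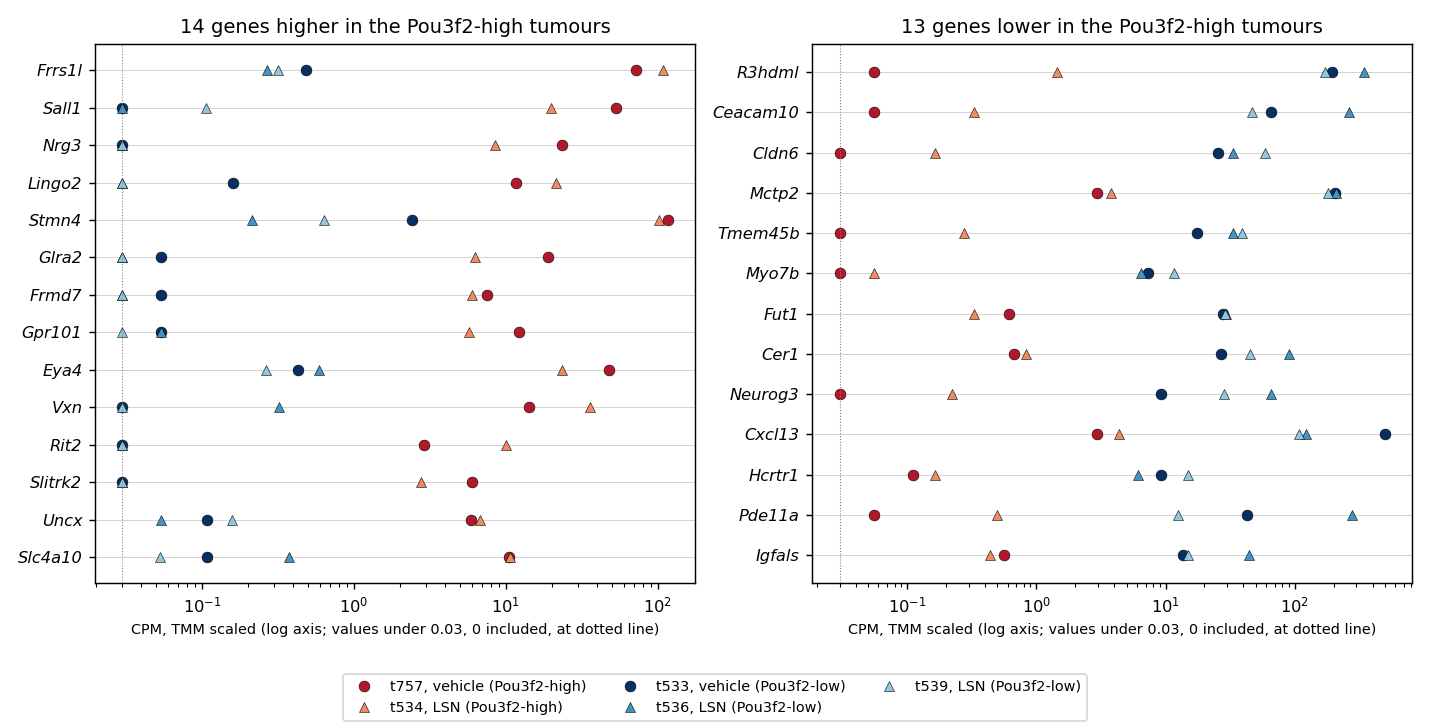
Level of 14 genes with a wide gap above and 13 with a wide gap below the low tumours, as TMM-scaled CPM on a log axis, 1 point per tumour; red colours mark the Pou3f2-high and blue colours the Pou3f2-low tumours, circles vehicle and triangles LSN. The red and blue points do not overlap for any of the 27 genes, which were picked for that. Within a side the points lie together for some genes, such as Mctp2 and Fut1, and far apart for others, such as R3hdml in the high and Pde11a in the low tumours.

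The genes with the widest gap in the other direction are described next. Mctp2, a calcium-binding membrane protein, had the tightest values, at 2.96 and 3.81 CPM in the high tumours against 204, 207 and 182 CPM in the low ones (−5.87 ± 0.28). Fut1, a fucosyltransferase that makes the H blood group antigen, stood at 0.614 and 0.331 CPM against 27.8, 29.2 and 29 CPM (−5.90 ± 0.47). The 3 low tumours lay close together for Mctp2 and Fut1. R3hdml stood at 0.0558 and 1.44 CPM against 195, 346 and 172 CPM (−8.30 ± 1.15), and Ceacam10, a carcinoembryonic antigen relative, at 0.0558 and 0.331 CPM against 64.9, 262 and 46.6 CPM. Cldn6, a claudin of embryonic tight junctions, had 0 and 3 counts in the high tumours and stood at 25.5, 33 and 58.9 CPM in the low ones, a ratio of 471 with a counting interval of 161 to 2287. Neurog3, the factor that starts endocrine differentiation in the pancreas and gut, stood at 0 and 0.221 CPM against 9.3, 65.6 and 28.1 CPM, so it was near 0 in the high tumours and varied widely among the low ones. Cxcl13, a chemokine that attracts B cells, stood at 2.96 and 4.36 CPM against 501, 122 and 107 CPM (−6.05 ± 0.98). Cer1, a secreted Nodal and BMP antagonist, stood at 0.67 and 0.828 CPM against 27.1, 89.8 and 45.4 CPM (−6.16 ± 0.71). Tmem45b, Myo7b, the orexin receptor Hcrtr1, the phosphodiesterase Pde11a and Igfals were each at 0.558 CPM or less in both high tumours and at 6.16 CPM or more in all low ones.

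The epithelial list of splicing, junction and keratin genes had the lowest median of the 19 functional lists. Of its 48 measured members, of 49 listed, 0 were higher and 33 (68.8%) were lower in both high tumours, 26 of them widely, against 18.1% and 3.07% of all genes. The list's median log2 difference was −2.27. Leaving out each tumour in turn gave 34 to 39 members lower, a count that could hardly fall, and medians from −2.70 to −2.03. Without t534 the list had 4 members higher. Esrp1, the splicing regulator that maintains epithelial isoforms, stood at 8.71 and 3.04 CPM in the high tumours against 172, 252 and 423 CPM in the low ones (−5.59 ± 0.72). Its relative Esrp2 stood at 10.3 and 2.76 CPM against 19.1, 17.3 and 27.7 CPM, separated but not widely (−1.71 ± 0.64). Cdh1, which encodes E-cadherin, stood at 118 and 33.7 CPM against 463, 524 and 886 CPM (−3.04 ± 0.66). Epcam, an epithelial adhesion molecule, stood at 206 and 80.1 CPM against 639.7, 722 and 1241 CPM (−2.60 ± 0.55). For Esrp1, Esrp2, Cdh1 and Epcam, t534 was the lowest tumour and t757 the next, and t539 the highest.

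Several junction and keratin genes of the list were lower as well, but their families were not lower as a whole. Of 18 measured keratins, 6 were lower, 1 was higher and 11 overlapped, with a median of −0.18, and of 15 claudins 6 were lower, 1 was higher and 8 overlapped, with a median of 0.35. Desmosomal Dsp stood at 17.1 and 8.89 CPM against 153, 173 and 280.0 CPM (−3.96 ± 0.48). The tight junction gene Cldn7 stood at 15.2 and 4.69 CPM against 77.8, 185 and 161 CPM (−3.83 ± 0.69), and Ocln, which encodes occludin, at 13.7 and 3.59 CPM against 46.6, 80.1 and 54.6 CPM (−2.81 ± 0.65). These junction genes remained measurable in every high tumour. The simple-epithelial keratin Krt8 stood at 123 and 36.5 CPM against 770.3, 1186 and 753 CPM (−3.50 ± 0.63), and its partner Krt18 at 65.8 and 43.5 CPM against 414, 504 and 277 CPM (−2.87 ± 0.38). Rab25, a small GTPase of epithelial recycling, stood at 5.36 and 2.32 CPM against 31.4, 56.5 and 52.6 CPM (−3.61 ± 0.53). Epithelial transcription factors lay on the same side: Ovol1 at 0.335 and 0.331 CPM against 6.29, 15.2 and 12.5 CPM, Grhl2 at 8.21 and 3.64 CPM against 28.5, 12.2 and 51.7 CPM, and Elf3 at 21.1 and 13.8 CPM against 90.4, 194 and 84 CPM. The 15 members that overlapped between the sides included Krt19, at 65.6 and 16.5 CPM against 74.5, 41.2 and 11.4 CPM, and the plakoglobin gene Jup, at 214 and 323 CPM against 317, 352 and 361 CPM. Normal lung epithelium was also in the libraries: its summed alveolar markers came to 7543 and 1817 CPM in the high tumours and to 3186, 928 and 1446 CPM in the low ones, and its airway markers to 2903 and 1193 CPM against 6291, 102 and 411 CPM. Both sums overlapped between the sides. The epithelial list itself summed to 1792 and 1040 CPM against 6074, 8212 and 7850 CPM. The part of normal lung epithelium in these values was not tested. In bulk tissue, fewer cells of a type and less RNA per cell cannot be told apart.

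Promoters of 5 genes lower in the high tumours are shown, because they hold the E-box CAGGTG, the letters that repressors of the Zeb and Snail families bind in promoters of epithelial genes. Some bHLH proteins bind the same letters. The windows are RefSeq sequences of build GRCm38.p6, 250 bases before to 50 bases after an annotated start, in the direction of transcription, with CAGGTG or its reverse complement CACCTG in capitals. They are chr17:87635729-87636028 (plus strand) for Epcam, chr11:69965171-69965470 (plus) for the second of 2 Cldn7 starts, chr17:23679115-23679414 (plus) for Cldn6, chr3:88548230-88548529 (minus) for Rab25 and chr1:135258423-135258722 (minus) for Elf3, where the POU octamer ATGCAAAT lies beside the E-box and is in capitals too.
Epcam: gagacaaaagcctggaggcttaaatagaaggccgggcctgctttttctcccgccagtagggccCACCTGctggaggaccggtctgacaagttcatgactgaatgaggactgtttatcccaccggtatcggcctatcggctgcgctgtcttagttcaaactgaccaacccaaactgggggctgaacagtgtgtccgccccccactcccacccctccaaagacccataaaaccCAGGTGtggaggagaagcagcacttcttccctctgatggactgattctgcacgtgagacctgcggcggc
Cldn7: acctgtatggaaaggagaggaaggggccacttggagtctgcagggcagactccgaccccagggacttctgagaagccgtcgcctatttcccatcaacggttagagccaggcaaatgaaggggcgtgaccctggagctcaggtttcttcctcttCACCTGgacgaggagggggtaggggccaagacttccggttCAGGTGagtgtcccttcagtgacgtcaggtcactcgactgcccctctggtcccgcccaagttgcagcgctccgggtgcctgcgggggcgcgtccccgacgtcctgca
Cldn6: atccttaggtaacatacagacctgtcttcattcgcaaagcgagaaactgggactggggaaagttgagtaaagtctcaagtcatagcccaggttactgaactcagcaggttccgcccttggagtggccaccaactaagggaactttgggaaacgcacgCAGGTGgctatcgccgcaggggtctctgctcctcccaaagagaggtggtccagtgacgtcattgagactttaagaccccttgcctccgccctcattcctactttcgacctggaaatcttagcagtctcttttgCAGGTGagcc
Rab25: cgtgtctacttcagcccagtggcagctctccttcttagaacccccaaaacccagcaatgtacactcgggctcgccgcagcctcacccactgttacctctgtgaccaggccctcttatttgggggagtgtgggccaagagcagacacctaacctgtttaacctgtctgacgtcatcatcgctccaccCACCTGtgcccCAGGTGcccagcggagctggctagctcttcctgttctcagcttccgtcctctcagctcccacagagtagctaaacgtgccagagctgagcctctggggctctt
Elf3: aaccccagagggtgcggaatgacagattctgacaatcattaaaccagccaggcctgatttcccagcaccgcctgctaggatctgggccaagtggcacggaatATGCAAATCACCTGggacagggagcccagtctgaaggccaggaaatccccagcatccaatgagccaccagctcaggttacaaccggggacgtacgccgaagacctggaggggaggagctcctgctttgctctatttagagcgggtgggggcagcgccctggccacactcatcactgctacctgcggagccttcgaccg
Counted from the start site as 0, Epcam has E-boxes beginning at −187 and −19, Cldn7 at −97 and −57, Cldn6 at −93 and 40, Rab25 at −64 and −53, and Elf3 has 1 at −140 after an octamer at −148.

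Across the table, CAGGTG on either strand was found in a promoter of 2842 of 12710 tested genes with a RefSeq promoter (22.4%). It was found in 164 of 346 widely lower genes (47.4%), in 101 of 432 widely higher genes (23.4%), and in 18 of 21 lower genes of the epithelial list (85.7%), against 5 of 9 of that list's other genes (55.6%). The E-box CAGCTG was found in 18.8% of all these genes, 27.5% of the widely lower and 23.4% of the widely higher ones, CACGTG in 10.9%, 9.54% and 7.41%, and CATATG in 2.28%, 2.6% and 4.4%. Among genes whose promoters had a GC content of 50 to 60%, CAGGTG was found in 23.4% of all, 43.6% of the widely lower and 23.2% of the widely higher ones, and among genes with a single promoter in 18.7%, 45.6% and 20.2%. The octamer ATGCAAAT was found in 1.68% of all these genes, 1.85% of the widely higher and 2.31% of the widely lower ones. Only 71% of the tested genes, 67% of the widely higher and 63% of the widely lower ones had a promoter in the table, under the 80% set as the least for such a check, so as a comparison between gene sets it is void and the shares describe the matched genes alone. A match is not evidence of binding. Neither motif was found in the tabled promoters of Nr2f1 or Sall1. Other genes higher in the high tumours did have CAGGTG, such as Frrs1l at −201 and Slc4a10 at −121.

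Among mesenchymal regulators and matrix genes, 11 of 22 measured members (of 24) were higher and 1 was lower in both high tumours, with 3 widely higher and a median of 1.06. The repressor Zeb1 stood at 103 and 121 CPM against 41.7, 38.1 and 16.9 CPM (1.80 ± 0.41) and its relative Zeb2 at 236 and 239 CPM against 104, 83.3 and 14.5 CPM (1.82 ± 0.74). Cdh11, a cadherin of mesenchyme, stood at 211 and 114 CPM against 18, 9.16 and 6.04 CPM (3.88 ± 0.55), and Tgfb2, a TGF-beta ligand, at 16.9 and 47.6 CPM against 6.56, 4.45 and 3.12 CPM (2.77 ± 0.57). These 4 genes were separated, which by definition places both the vehicle and the LSN tumour of the high side above the low tumours. The list was not uniform: Snai1 and Snai2 overlapped between the sides, Snai3 was near 0 in the high tumours at 0 and 0.276 CPM against 1.56, 2.09 and 4.71 CPM, and N-cadherin's gene Cdh2 stood at 114 and 138 CPM against 122, 145 and 147 CPM. Vimentin's gene Vim stood at 548 and 119 CPM against 126, 101 and 124 CPM, high in t757 alone. Without t757 the list's median was 0.10, and without t534 it was 1.33. Fibroblast, pericyte and smooth muscle markers summed to 2189 and 1554 CPM in the high tumours against 777 to 1123 CPM in the low ones, and 3 of their 20 genes were higher and 3 lower. Macrophages also make Zeb2 and Axl, and their markers summed to 4555 and 1506 CPM against 923 to 1898 CPM, with 8 of 19 genes higher. The part of these cells in the mesenchymal values was not tested.

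Neuronal cytoskeleton, RNA-binding and axon adhesion genes gave the most higher members of the 19 functional lists, and formed the largest of them by measured genes. By share of members higher, the POU and COUP factors came first at 55.6% of 9, and the mesenchymal list had 50% of 22. The mesenchymal and tuft cell medians, 1.06 and 1.37, were above the median of this list. Of 53 members, all measured, 29 (54.7%) were higher and 1 was lower in both high tumours, 16 of them widely, and the median was 0.99. Leaving out each tumour in turn, 31 to 39 members were higher and 1 to 4 lower, counts that could hardly fall. Mapt, the gene of the microtubule protein tau, stood at 559 and 474 CPM against 48.4, 13.1 and 90.3 CPM (3.35 ± 0.74). Dpysl3, a collapsin response mediator, stood at 316 and 242 CPM against 21.8, 8.52 and 23.2 CPM (3.96 ± 0.47). Gap43, a protein of growth cones, stood at 157 and 115 CPM against 15.9, 6.27 and 1.11 CPM (4.13 ± 0.97). For these 3 genes both high tumours lay far above the highest low tumour. Doublecortin's gene Dcx, a marker of migrating neurons, stood at 277 and 514 CPM against 84.8, 15.4 and 2.01 CPM (3.54 ± 1.33), with the low tumours spread from t533 down to t539. Epha3, an ephrin receptor of axon guidance, stood at 27.7 and 28.1 CPM against 0.807, 1.5 and 0.476 CPM (4.90 ± 0.58), and Nova1, a neuronal splicing regulator, at 235 and 341 CPM against 55.3, 22.8 and 42.6 CPM (2.84 ± 0.41). Other members differed less, such as the neuronal tubulin Tubb3 at 188 and 162 CPM against 77.7, 31 and 38.2 CPM (1.84 ± 0.42) and Map2 at 455 and 753 CPM against 235, 252 and 225 CPM (1.35 ± 0.27). Chl1, an adhesion molecule, was the member that was lower, at 129.7 and 113 CPM against 182, 144 and 220.1 CPM. The neurofilament genes Nefl and Nefm, and Stmn2, overlapped between the sides.

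**Figure D2:**
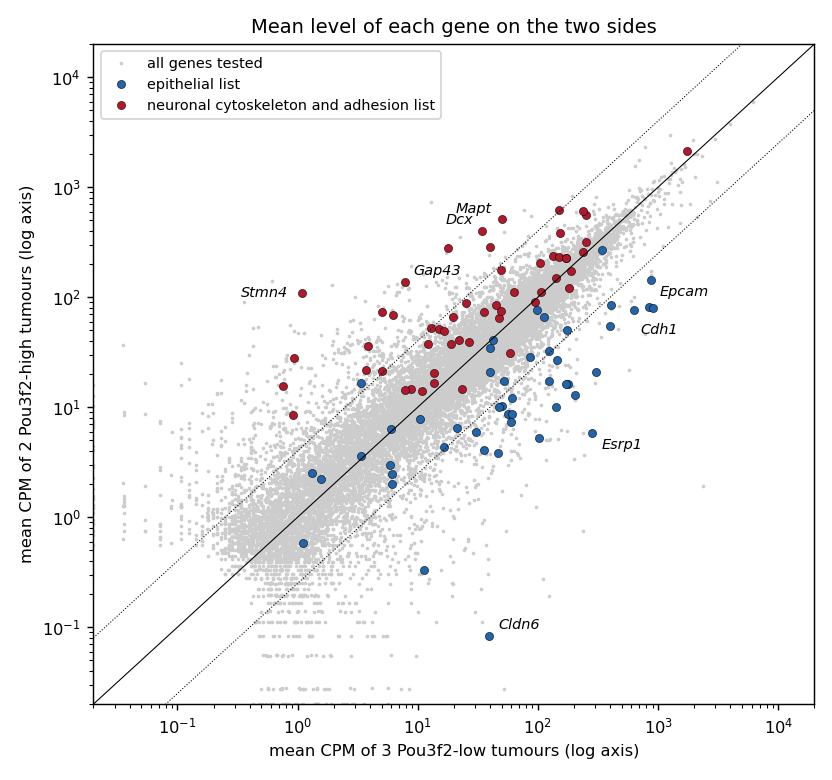
Mean CPM of each tested gene in the 3 low tumours (x axis) and the 2 high tumours (y axis), both on log axes; grey points are all genes, blue the epithelial list and red the neuronal cytoskeleton and adhesion list, the solid line marks equal means and the dotted lines a 4-fold difference. The blue points lie mostly below and the red points mostly above the line.

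Adhesion families seen among the widest differences were counted afterwards, so these counts are descriptions of genes noticed for their values. Of 15 measured genes of the Slitrk, Lrrtm, Lingo and Lrfn families, leucine-rich proteins that organise synapses, 9 were higher and 0 lower, 8 of them widely. Lrrtm4 stood at 17.3 and 24.7 CPM against 2.15, 0 and 0.106 CPM, Lingo1 at 51.4 and 71.4 CPM against 17.6, 4.34 and 3.34 CPM (2.86 ± 0.76), and Slitrk1 at 12.2 and 2.21 CPM against 0.323, 0 and 0.0529 CPM. Of 58 protocadherins, cadherin relatives that give neurons their surface identity, 22 were higher and 2 lower, 18 widely higher. Many belong to clusters of near-identical exons, where reads could be split between members, so single values are uncertain. Pcdh10, which lies outside the clusters, stood at 136 and 179.6 CPM against 87.4, 2.36 and 21.3 CPM (2.09 ± 1.20), while Pcdh9 was lower at 2.85 and 4.2 CPM against 30.2, 12.6 and 45.6 CPM (−3.06 ± 0.66). By contrast, of 12 measured Hox genes, the patterning factors of the trunk, 0 were higher and 0 lower.

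Ion channel and transmitter receptor genes differed in both directions, with 18 of 49 measured members (of 54) higher, 13 widely, and 7 lower, 4 widely, and a median of 0.63. The sodium channel genes Scn1a and Scn2a stood at 26 and 38.4 and 24.3 and 34.5 CPM in the high tumours against 8.44, 1.71 and 3.18 CPM and 7.8, 5.73 and 1.16 CPM. The AMPA receptor gene Gria4 stood at 108 and 115 CPM against 36.6, 15.5 and 2.12 CPM (2.62 ± 0.98), and Gria2 at 112 and 196 CPM against 49.2, 38.6 and 0.106 CPM (2.39 ± 1.54), where t539 was near 0. Nicotinic receptor subunits went opposite ways. Chrna4 stood at 5.19 and 12.5 CPM against 0.323, 0.161 and 0 CPM (5.73 ± 1.18), whereas Chrnb4 stood at 1.28 and 1.27 CPM against 20.2, 7.23 and 10.2 CPM (−3.29 ± 0.66). The calcium channel gene Cacna1h and the potassium channel gene Kcnh6 were also lower, Cacna1h at 29.9 and 25.4 CPM against 209.7, 306 and 119 CPM (−2.94 ± 0.46) and Kcnh6 at 1.51 and 9.06 CPM against 64.2, 88.4 and 45.8 CPM (−3.64 ± 0.83). The median of this list was 0.13 without t534 and 1.004 without t757, with 18 and 34 members higher and 15 and 8 lower, so it depended on which high tumour was kept.

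Genes of vesicle release were divided between the directions. Of 33 measured synaptic vesicle and SNARE genes (of 34), 7 were higher and 7 lower, with a median of 0.01. The median was −0.48 without t534, with 12 lower, and 0.26 without t757, with 13 higher. Cplx1, a complexin of fast release, stood at 63.4 and 56.9 CPM against 7.1, 2.36 and 13.2 CPM (2.99 ± 0.67), and Syt11, a non-calcium synaptotagmin, at 410.3 and 445 CPM against 171, 182 and 210.1 CPM (1.19 ± 0.20). Syt5, a synaptotagmin of dense-core vesicles, was lower at 11.8 and 13.9 CPM against 33.8, 53.9 and 43.4 CPM (−1.77 ± 0.31). Synaptophysin's gene Syp, a routine neuroendocrine marker, overlapped at 84 and 170.4 CPM against 92.8, 119.8 and 114 CPM. Among peptide genes, 4 of 21 measured (of 32) were higher and 3 lower, and 11 were higher without t757. The peptide median of 0.06 was −0.59 without t534. Calca, which encodes calcitonin and CGRP, stood at 61.2 and 257 CPM against 1573, 358 and 698 CPM (−2.46 ± 0.89), and Tac1, which encodes substance P, stood at 4.91 and 0.828 CPM with no count in any low tumour, at least 53.5-fold higher. In the serotonin list, 2 of 12 measured genes (of 14) were higher and 2 lower. The monoamine transporter Slc18a1 stood at 2.46 and 12.6 CPM against 92.2, 92.8 and 162 CPM (−3.94 ± 0.80), and Gch1, which makes the cofactor for serotonin synthesis, at 32.5 and 39.9 CPM against 108, 195 and 124 CPM (−1.97 ± 0.34). Maoa, which breaks serotonin down, was higher at 50.9 and 61.6 CPM against 20.3, 20.7 and 19.3 CPM (1.48 ± 0.22). Tph1, the enzyme that starts serotonin synthesis, ranged from 0.67 and 3.15 CPM in the high tumours to 741, 6405 and 2.49 CPM in the low ones, and overlapped because t539 lay below t534.

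**Figure D3:**
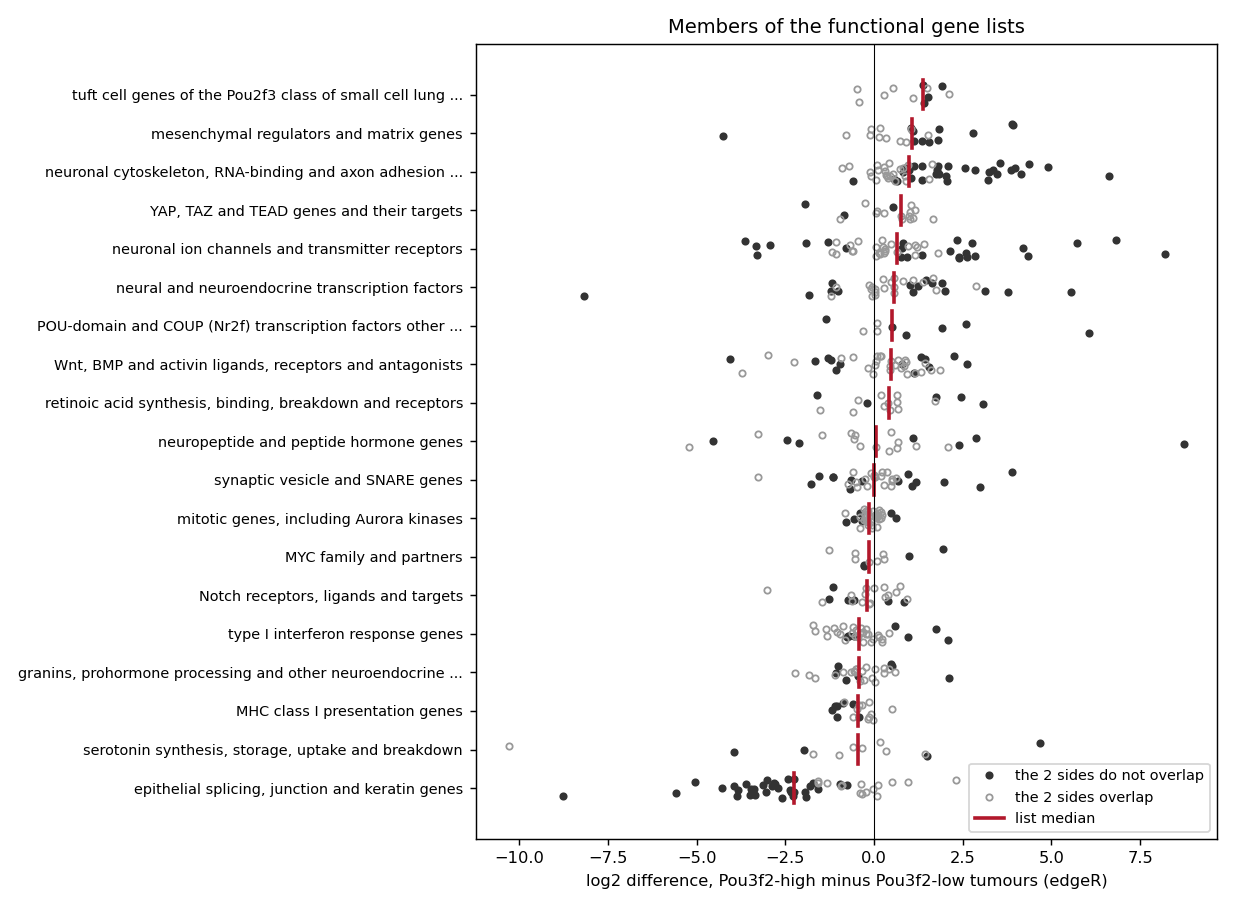
Log2 difference, high minus low, of every measured member of the 19 functional gene lists (points, filled where the sides do not overlap, open where they do) with each list's median (red bar), ordered by median. The epithelial list lies lowest with a median of −2.27, and the neuronal cytoskeleton and adhesion list has 29 filled points above 0.

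Of the POU and COUP factors other than Pou3f2, 9 of 16 were measured, 5 were higher, 2 widely, and 1 was lower. Nr2f1 stood at 198 and 60.6 CPM against 5.59, 0.107 and 0.0529 CPM (6.07 ± 1.72), with t533 above t536 and t539 among the low tumours as for Pou3f2. An antisense gene, A830082K12Rik, which shares 1741 bases of its span with Nr2f1, had 706 and 281 counts in the high tumours and 42, 2 and 1 in the low ones, and the library kit does not keep strand, so reads from the shared stretch cannot be told apart by strand. Nr2f2, its relative in vessels and mesenchyme, stood at 111 and 93.4 CPM against 38.6, 16.1 and 26.9 CPM (1.91 ± 0.39). Pou3f1, a factor of myelinating glia, was low throughout at 0.67 and 2.21 CPM against 0.376, 0.214 and 0.106 CPM. Pou3f4 overlapped, at 0 and 9.66 CPM against 2.42, 11.4 and 0 CPM, so it did not follow Pou3f2. Pou4f1, a factor of sensory neurons, was lower at 1.67 and 0.607 CPM against 2.96, 2.14 and 3.71 CPM. Pou2f3, which marks tuft-like small cell lung cancer, had 0 to 7 counts in any tumour and was not tested.

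Homeobox genes were counted among the transcription factors that the deposited table assigns to families. Of 100 measured, 26 were higher and 6 lower, and 14 (14%) were widely higher, against 42 of 1119 factors of any family (3.75%) and 3.6% of all genes. Named examples are known from different regions of the embryo. Lhx1, of kidney and neurons, stood at 45.8 and 56.1 CPM against 9.25, 0.107 and 0.794 CPM (3.91 ± 1.47), and Hmx3, of the inner ear and hypothalamus, at 32.6 and 8.17 CPM against 1.02, 0.0536 and 0.0529 CPM (5.74 ± 1.40). Gbx2, of the midbrain and hindbrain boundary, stood at 4.19 and 2.71 CPM against 0.108, 0.214 and 0 CPM, and Dlx1, of forebrain interneurons, at 4.58 and 4.69 CPM against 0.699, 0.375 and 0.953 CPM (2.77 ± 0.62). All 4 were low in every low tumour except Lhx1 in t533. Outside the homeobox genes, the widely higher factors included Pax1, of the thymus and sclerotome, at 21.6 and 256 CPM against 1.61, 0.161 and 0.0529 CPM, and Gata2 at 38 and 40.4 CPM against 9.63, 1.66 and 2.12 CPM (3.13 ± 0.81). The neuronal zinc-finger repressor Scrt1 stood at 46.9 and 40.8 CPM against 8.23, 2.14 and 1.16 CPM (3.51 ± 0.83). Nfix, of neural progenitors, stood at 665 and 578 CPM against 59.8, 8.36 and 161 CPM (3.02 ± 1.04), and Nfib, a driver of metastasis in mouse small cell lung cancer, stood at 640.3 and 751 CPM against 306, 324 and 247 CPM (1.25 ± 0.23).

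The widely lower factors included Neurog3 and Ovol1. Id4, an inhibitor of bHLH factors, stood at 56.5 and 36.5 CPM against 595, 1466 and 275 CPM (−4.06 ± 0.83). Sall4, of embryonic stem cells, stood at 0 and 1.55 CPM against 7.85, 12.2 and 8.15 CPM, and Glis3, of pancreas and thyroid, at 12.1 and 16.3 CPM against 77.7, 64.4 and 101 CPM (−2.51 ± 0.32). The ETS factors Ehf, Elf3 and Ets2 were 3 of the 24, and Ets2 stood at 78.5 and 66.1 CPM against 198, 664 and 228 CPM (−2.33 ± 0.62).

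**Figure D4:**
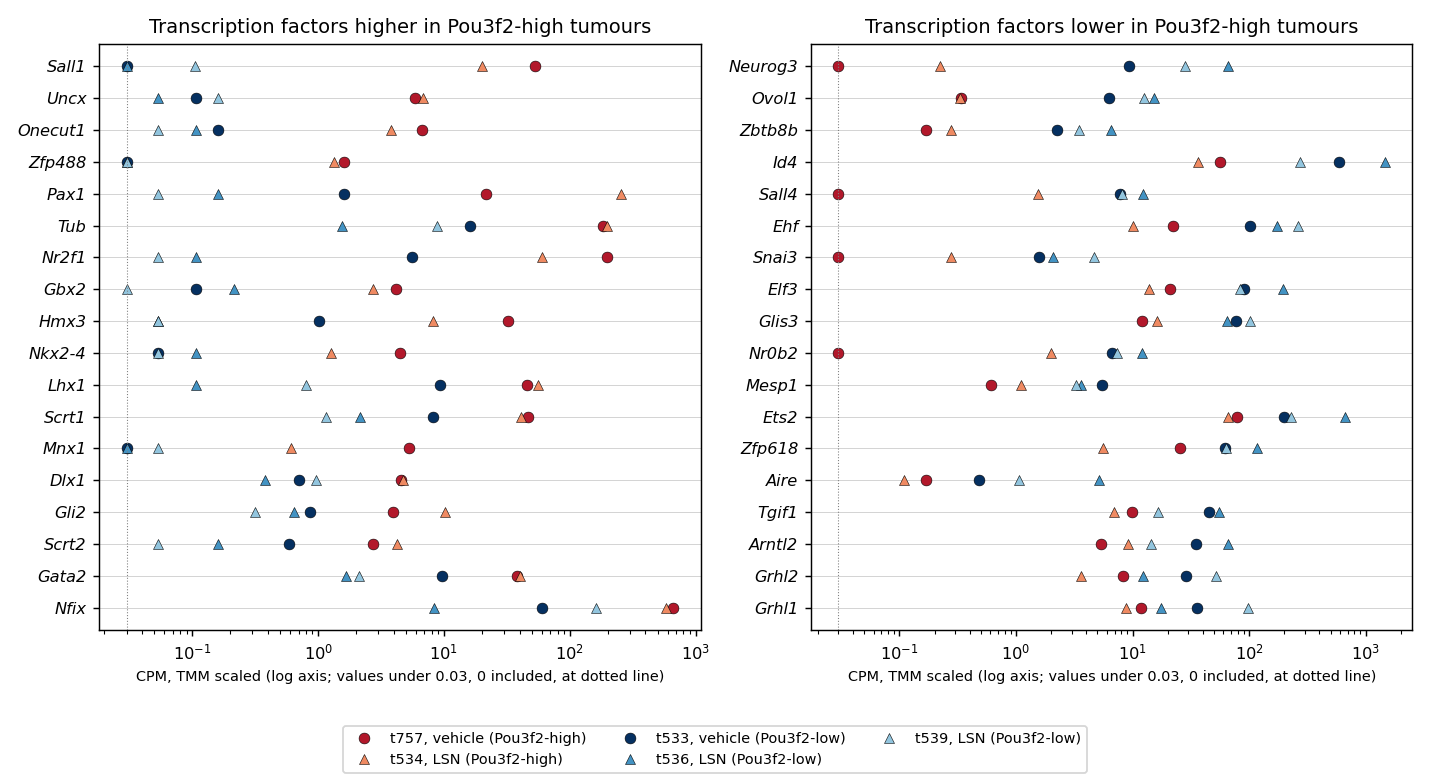
Level of 18 transcription factors with a wide gap in each direction (unnamed gene models, pseudogenes and some others left out), as TMM-scaled CPM on a log axis, 1 point per tumour; colours and shapes mark side and treatment as given in the key. Most factors of the left panel stand under 2 CPM in the low tumours, and Id4 at the right is at 275 CPM or more in each of them.

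Of 36 measured neural and neuroendocrine transcription factors (of 54), 10 were higher and 5 lower, with a median of 0.56. The median was −0.01 without t757, and 21 members were higher without t534. Foxa2, a foregut factor, was lower at 133 and 150.1 CPM against 221, 360.1 and 276 CPM (−1.01 ± 0.27). Insm1, a general neuroendocrine factor, overlapped at 535 and 589 CPM against 507, 822 and 445 CPM, as did the lung factor Nkx2-1. Neurod1, which defines another subtype of small cell lung cancer, stood at 11.1 and 0.773 CPM against 37.3, 0.429 and 0 CPM and did not follow the sides. Onecut1, of liver and motor neurons, was higher at 6.75 and 3.81 CPM against 0.161, 0.107 and 0.0529 CPM (5.54 ± 0.74), and so was Myt1l, a repressor of non-neuronal genes, at 51.6 and 68.8 CPM against 13.3, 23.2 and 22.2 CPM (1.62 ± 0.32).

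Of 28 neuroendocrine secretory markers, all measured, 3 were higher and 4 lower, with a median of −0.43. Without t534, 16 of them were lower and the median was −0.93, and without t539 11 were lower. Rtn1, a reticulon of neuroendocrine cells, was the widely higher one at 369 and 350.3 CPM against 67, 13.5 and 169.5 CPM (2.11 ± 0.90). The prohormone convertase Pcsk2 was lower at 71.5 and 78.1 CPM against 163, 116 and 173 CPM (−1.01 ± 0.25), and Scg3, a granin, at 173 and 189 CPM against 273, 256 and 218 CPM (−0.46 ± 0.21). Chromogranin A's gene Chga overlapped at 172 and 1241 CPM against 1475, 1360.3 and 492 CPM, low in t757 only. Ncam1, a neural adhesion marker used in pathology, was higher at 372 and 379 CPM against 249, 199 and 346 CPM (0.50 ± 0.28).

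Signalling lists were mixed. Mycn, a driver of small cell lung cancer, stood at 39.7 and 51.9 CPM against 15.7, 7.77 and 12.6 CPM (1.93 ± 0.37), and Myc at 24.2 and 14.3 CPM against 11.2, 11.9 and 6.3 CPM (0.97 ± 0.45), while Mycl overlapped at 60.7 and 27.2 CPM against 56.7, 122 and 141 CPM. In the MYC family list, 2 of 11 genes were higher and 2 lower. Of 40 measured Wnt, BMP and activin genes (of 43), 7 were higher and 6 lower. The BMP-responsive genes Id1, Id2 and Id3 were lower along with Id4, Id3 at 34.6 and 26.2 CPM against 54.5, 91.3 and 80.3 CPM (−1.31 ± 0.32). The Wnt receptor Fzd1 was higher at 41.9 and 30.7 CPM against 10.4, 6.81 and 5.66 CPM (2.25 ± 0.38), and so was Axin2, a common Wnt target, at 30.6 and 46.3 CPM against 15.5, 23.4 and 28.6 CPM (0.77 ± 0.35). In the retinoid list, 3 of 16 measured genes (of 18) were higher and 2 lower. The retinoic acid receptor gene Rarb stood at 5.36 and 7.68 CPM against 1.45, 0.214 and 0.635 CPM (3.08 ± 0.85) and the binding protein gene Crabp1 at 171 and 303 CPM against 77, 45.3 and 89.2 CPM (1.75 ± 0.38). Of 22 Notch pathway genes, 2 were higher and 4 lower. The ligand gene Jag2 was lower at 129 and 116 CPM against 207, 154 and 454 CPM, and the effector Hes1 overlapped. Of 17 YAP and TEAD genes, 1 was higher and 2 lower, and Yap1 overlapped at 30.5 and 10.1 CPM against 16.9, 9.81 and 9.21 CPM. Of 11 measured tuft cell genes (of 17), 4 were higher and 0 lower. Dclk1, a kinase of tuft cells that is also made by neurons, stood at 78.8 and 104 CPM against 26.2, 22 and 24.9 CPM (1.90 ± 0.23). Several of these values changed when 1 tumour was left out. Without t533, 17 Wnt, BMP and activin, 9 retinoid and 7 YAP and TEAD genes were higher, where 24.6% of all genes were. Without t534 the medians were 0.65 for Wnt, BMP and activin, 0.74 for retinoid and −0.08 for Notch genes. Those of the YAP and TEAD and the tuft cell genes were then 1.14 and 1.40. Over all 5 tumours the medians were 0.47 for Wnt, BMP and activin, 0.43 for retinoid, −0.19 for Notch and 1.37 for tuft cell genes. Leaving out t757 gave 0.05, 0.15, −0.28 and 0.39, and turned the YAP and TEAD median from 0.76 to −0.23. The retinoid median was 0.06 without t536.

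The mitotic, interferon and antigen presentation genes, to which the series' title refers, were described across the sides as well. Of 40 measured mitotic genes (of 41), 2 were higher and 4 lower, with a median of −0.13, and Aurka, which encodes Aurora A, overlapped at 103 and 87.1 CPM against 90.8, 91.6 and 146 CPM. Without t539, 19 mitotic genes were higher, where 25.6% of all genes were, and the median turned to 0.26. Of 36 type I interferon response genes, 4 were higher and 4 lower, with a median of −0.43. Without t536, 14 were higher, where 22.5% of all genes were, and the median turned to 0.33. Without t533, 10 were lower, where 23.9% of all genes were, and the median was −0.64. Without t534 the median was −0.28. Ifit3 was the widely higher one at 37.6 and 28.2 CPM against 9.47, 8.2 and 5.72 CPM (2.08 ± 0.36), with a close paralogue, Ifit3b, that could share its reads. Rsad2 and Cmpk2, neighbours that are induced together, were lower, Cmpk2 at 92.9 and 83.8 CPM against 154, 118 and 159.7 CPM (−0.70 ± 0.23). Of 18 MHC class I presentation genes, 0 were higher and 7 lower, with a median of −0.46, and 11 were lower without t533 or without t534. The peptide transporter gene Tap1 stood at 35 and 39.5 CPM against 48.6, 93.8 and 64.4 CPM (−0.89 ± 0.34) and the immunoproteasome gene Psmb9 at 18.6 and 19.9 CPM against 32.9, 49.8 and 37 CPM (−1.05 ± 0.28). Cd274, which encodes PD-L1, overlapped at 22.1 and 54.1 CPM against 32.2, 44 and 51.9 CPM.

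Markers of other cells in the tissue differed between tumours. T and NK cell markers were few, summing to 62.3 and 51.5 CPM in the high tumours and 31.6 to 62.7 CPM in the low ones, with 7 of 21 measured genes higher and 1 lower, and 14 higher without t534 and 16 without t539. Neutrophil markers summed to 320.3 and 223 CPM against 7.93 to 169 CPM, and B and plasma cell markers to 2424 and 335 CPM against 471 to 1254 CPM. Endothelial markers had a median of 0.96, but 1 of 19 was higher and 1 lower. That lower gene was Vwf, the blood clotting factor of endothelium, at 49.5 and 52.4 CPM against 439, 540.0 and 425 CPM (−3.20 ± 0.24), while Pecam1, Cdh5 and Kdr overlapped, Pecam1 at 121 and 31.4 CPM against 51.6, 34.5 and 26.5 CPM. Vwf was the only one of the 19 markers that was lower. Pdgfra, a receptor of fibroblasts and glial progenitors, stood at 59 and 164 CPM against 10.2, 4.77 and 5.93 CPM (3.999 ± 0.56), with t534 above t757, whereas the fibroblast collagen gene Col1a1 stood at 401 and 149.8 CPM against 190.1, 190.1 and 92.2 CPM. Of 12 muscle genes, 1 was higher and 4 lower. Ryr2, a calcium release channel of heart and neurons, stood at 8.26 and 15.5 CPM against 64.2, 96.3 and 28.5 CPM (−2.41 ± 0.61). Markers of mature brain neurons had 2 of 8 measured genes higher and 1 lower, and Schwann cell and glia markers 2 higher and 2 lower of 8. Without t534, where 29.3% of all genes were higher, these were 14 of 20 fibroblast, 14 of 19 macrophage, 15 of 19 endothelial, 14 of 16 alveolar, 9 of 10 neutrophil and 8 of 14 B and plasma cell markers. Without t757, 11 of 14 B and plasma cell markers were lower, with a median of −2.42 in place of 0.35, and the endothelial median was −0.26. Without t533, 14 of 16 alveolar, 10 of 17 airway and 10 of 19 endothelial markers were higher, and the airway median turned from −0.37 to 2.94. The part of other cells in the differences between the sides was not tested.

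**Figure D5:**
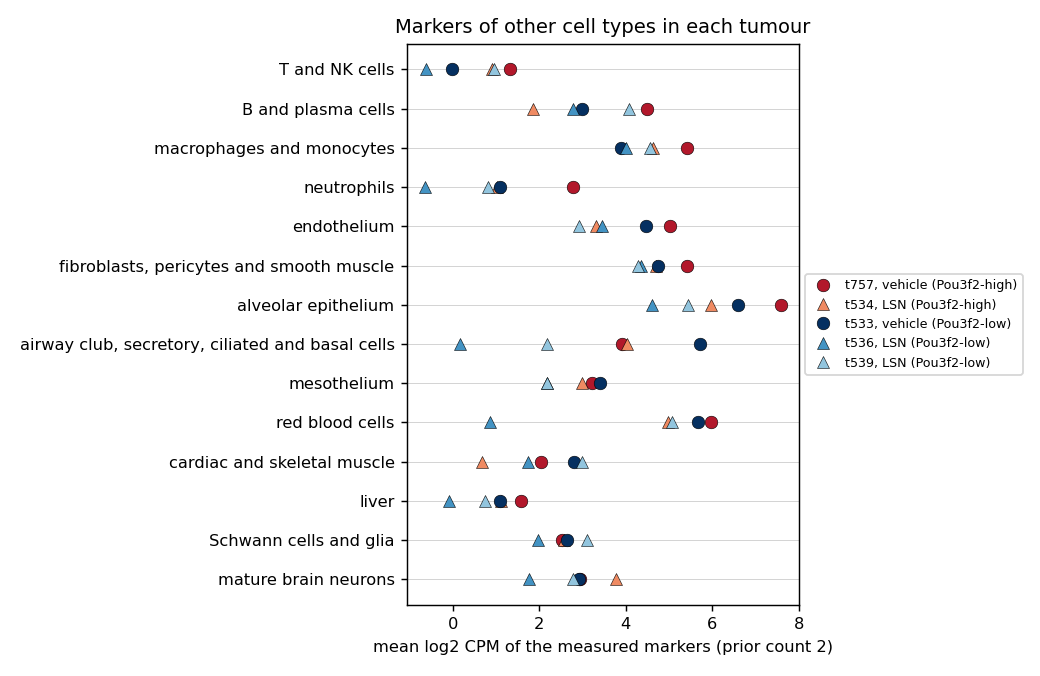
Mean log2 CPM (prior count of 2) of the measured markers of each of 14 other cell types, 1 point per tumour, with colours and shapes for side and treatment. For most immune, stromal and lung lists the highest point is t757, and the red and blue points are mixed in most rows.

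The position of genes was considered last. Within 5 Mb of Pou3f2 on chromosome 4, 24 genes were measured, of which 5 were higher and 5 lower, 3 of the 10 widely, with a median of 0.14. Among genes at a mean of 1 CPM or more, X had 165 of 515 genes higher (32%), chromosome 9 had 33.7% of its genes lower and chromosome 4 had 26.8%, against 16.9% higher and 18.7% lower over all chromosomes. Relative to each gene's own mean over the 5 tumours on the log2 scale, the median X gene stood at 0.40 in t534 and from −0.17 to 0.03 in the other tumours. The median genes of chromosomes 9 and 4 stood at 0.33 and 0.35 in t539, and that of chromosome 12 at −0.69 in t536 and 0.60 in t539. Gene copy number was not measured, and its part in these values was not tested.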

How the data were processed

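Bulk RNA-seq read counts of 5 mouse lung tumours were analysed. Per the labels' protocols, RNA was extracted with a column kit and DNase, libraries were made with a non-stranded NEBNext Ultra II kit and sequenced as paired ends, reads were mapped to mm10 with STAR, and the authors used DESeq2. Neither the counting tool nor its gene annotation is named in the labels. The deposited table holds raw read counts for 54532 genes, with coordinates, gene lengths and a transcription factor family column, which were used as given. No column of another sample was in it.

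Genes were kept by edgeR's filterByExpr (minimum count 10) and scaled by TMM, and log2 differences came from the edgeR quasi-likelihood fit (edgeR 4.0.16, R 4.3.3). Standard errors were worked out from the differences and their F statistics, as described above. Pou3f2 was left out of every count. The sides, the lists and the alternatives were chosen with earlier results of these data known, so no p-value is given for the sides. LSN was tested against vehicle with edgeR, and with DESeq2 1.42.0 as an alternative. Depth was 17439049 to 19766604 counts per library, and counting intervals (95%, exact) and floors (3 counts) cover counting error only. Named genes are the 15 with the widest gap in each direction at a mean of 1 CPM or more and the 4 most separated of each list; other names illustrate a list or were chosen after their values were seen. The scripts were tested on simulated data: in 17550 genes, 100% of the genes changed by a log2 of 2 or 4 between the sides were separated. The simulated spread between samples was the same for every gene, and only well-counted genes were changed. That checks the scripts and does not tell how reliably genes separate in these tumours. The other E-boxes and the splits by GC content in the promoter search were added after the first shares were seen. Some genes that the rule names are not reported here.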

Additional observations from a re-analysis of the deposited data

How the results depend on the processing

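Scaling by size factors of the DESeq2 kind and scaling by total counts left the counts of genes within 1.5 times the reported ones. Treatment as a term gave 669 genes 4-fold or more higher and 551 lower, and DESeq2 in place of edgeR gave 657 and 549. Neither changes the levels by which genes were called separated. Their counts at any size, 3087 higher and 3244 lower, therefore could not differ and test nothing. Pou3f2 limits of 5 or 20 CPM select the same tumours as 10 CPM, so their values repeat the reported ones and test nothing. Without the count filter, 1549 genes were 4-fold or more higher and 934 lower; at a fold of 2, 1663 were higher and 1337 lower. Leaving out each tumour in turn gave 602 to 1114 genes 4-fold or more higher and 540 to 1033 lower, and 3958 to 5585 genes higher and 4159 to 5562 lower at any size. LSN against vehicle gave 0 genes by edgeR and 111 by DESeq2; edgeR gave 0 in each of its alternatives, with 407 to 1181 genes at an unadjusted p under 0.05. Of 396 list medians under the alternatives, 24 changed sign, in 17 of 33 lists, 9 of them with at least 0.2 on both sides of 0. The 396 include 33 for each of the 2 Pou3f2 limits, which could not differ. Without vehicle replicate 2 (t757) the medians turned to −2.42 for B and plasma cell, −0.71 for liver, −0.55 for neutrophil, −0.26 for endothelial, −0.11 for red blood cell and −0.04 for fibroblast markers, −0.23 for YAP genes and −0.01 for neural factors, and to 0.07 for Schwann cell and glia markers; over the 5 tumours left out in turn, the neutrophil and liver medians ran up to 2.14 and 1.47. Airway markers turned to 2.94 without t533 and to 1.06 with treatment as a term, which turned B and plasma cell markers to −0.49. Interferon genes turned to 0.33 without t536 and mitotic genes to 0.26 without t539. The other 10 changes were in Notch, Schwann cell and glia, synaptic vesicle, peptide, serotonin and brain neuron genes. Of 1896 values of named genes, 17 changed sign, none of them a gene reported as widely separated. Leaving out 1 tumour cannot undo a separation, apart from small shifts in scaling. For those alternatives, the lack of sign changes in widely separated genes was therefore set in advance. The 1896 include 158 for each of the 2 Pou3f2 limits, which could not differ either. The causes were not tested. No paired analysis was possible because the labels give each tumour its own number and no replicate number; the replicate numbers used here follow the order of deposit and pair nothing. With 2 tumours on the high side, 1 library decides many values, and 3 counts are a level of 0.159 to 0.167 CPM.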

Other observations

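Among host genes of neural microRNAs, Mir124a-1hg and Mir9-3hg were higher in both high tumours, as were many genes of the neuronal cytoskeleton and adhesion list. Other neuronal lists were mixed. Mir124a-1hg, the host of a microRNA that is abundant in neurons, had 208 and 276 counts in the high tumours t757 and t534 against 11, 0 and 1 counts in t533, t536 and t539. Mir9-3hg had 64 and 47 counts against 7, 0 and 0. Another host of the first microRNA, Mir124-2hg, had 34 counts in t534 and 0 in the other 4 tumours. These are counts of host transcripts, and the mature microRNAs were not measured.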
